A study of Mus musculus with 12 samples.

Results

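The cadherin and protocadherin genes were taken as every gene whose symbol begins with Cdh followed by a digit, or with Pcdh. The rule found 37 of the 13581 genes in the tables, and 34 of them had values. They were 5 type I classical cadherins, 10 type II classical cadherins, 5 other cadherins, 9 delta protocadherins, 2 other non-clustered protocadherins and 3 clustered protocadherins. Pcdha10, Pcdhac1 and Pcdhgc4 carried no values in the tables. The clustered genes are therefore represented by Pcdha11, Pcdhb15 and Pcdhb20 alone, with no gamma gene, and these 3 share 1 locus on chromosome 18 and are not independent of each other.

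The study mapped 5-hydroxymethylcytosine (5hmC), an oxidised form of methylcytosine, in mouse embryonic stem cells, heart and liver. Genomic DNA was sheared, its 5hmC was tagged with an azide glucose and biotin, and the captured fragments were sequenced (hMe-Seal). No input library was used here, so a value is captured reads per length and depth, not a share of modified cytosines. The 12 libraries form 7 groups. Embryonic stem cells (ESC, 2 libraries) were the EB5 line, of 129/Ola background, kept with LIF, a cytokine that holds stem cells undifferentiated. All tissue libraries came from whole organs of C57BL6/j mice: heart and liver at neonatal day 1 to 2 (called P1, 2 libraries each), at embryonic day 14 (E14, 1 library each) and at 8 weeks (W8, 2 libraries each). ESC and P1 libraries were read as pairs of 75 bp, E14 and W8 libraries as single reads of 50 bp. Read format therefore goes with age, and strain and culture go with ESC against tissue, so these cannot be told apart. No label ties replicates to separate mice or dishes, and p-values accordingly measure only the spread between these libraries, which may be technical. In whole tissue, fewer cells of a type and less 5hmC per cell cannot be told apart.

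Cadherins are calcium-dependent adhesion proteins that span the membrane and bind their like on a neighbouring cell, while catenins tie their cytoplasmic tails to the cytoskeleton. In heart, N-cadherin (Cdh2) holds cardiomyocytes together at the intercalated disc, and VE-cadherin (Cdh5) seals the contacts between endothelial cells. In liver, E-cadherin (Cdh1) joins epithelial cells. Protocadherins form a larger and more weakly adhesive family, and the clustered ones are best known for giving neurons individual identities. In many tissues 5hmC lies within the bodies of transcribed genes, and in ESC it also lies near many promoters.

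For every gene the tables give FPKM, read counts scaled by window length and library depth, in 2 windows, a promoter window of 4000 bp and the gene body that follows it. Libraries held between 604012 and 5761636 reads over gene bodies, except the library labelled W8 heart replicate 2, which held 142778. That library had a median of 11.0 reads over a member's body, and 16 members had under 10 reads in it. Its hepatocyte marker sum was 7.94 FPKM, against 3.02 in W8 heart replicate 1, 2.38 to 3.42 in the other hearts and 9.82 to 11.5 in the P1 and W8 livers. Counts of calls are also given without it, as is any single result whose call, sign or size (by over 1.5 times) changed when it was left out. The summed level of 7 cardiomyocyte markers was 11.4 to 25.7 FPKM in the 5 heart libraries and 2.41 to 5.81 in the 5 liver libraries. In the E14 liver library the hepatocyte sum was 3.96 FPKM and the spread of levels was narrow, with a ratio of the 95th to the 5th percentile of long bodies of 4.08, against 8.37 to 17.5 elsewhere. The summed level of 4 pluripotency genes did not set ESC apart (3.07 and 3.11 FPKM, against 1.17 to 5.00 in tissues).

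Gene body levels were compared between the subfamilies first. Over the mean of the 7 groups, the type I cadherins lay between 0.487 and 0.986 FPKM with a median of 0.931, whereas the type II cadherins had a median of 0.204 and the delta protocadherins 0.349. Pcdh1, a delta protocadherin of epithelia, was the highest member at 1.49 FPKM, and Cdh7, a neural type II cadherin, was the lowest at 0.0676. Cdh7 fell below the floor for testing, which left 33 members tested in gene bodies and 34 in promoters. In each library the median member lay below the median of all genes, at 0.256 to 0.769 of it. W8 liver was the lowest group for 19 of the 34 members, and the share of all genes lowest there was not counted. The 5th percentile of long bodies was 0.111 and 0.110 FPKM in the W8 livers and 0.110 to 0.226 in the other libraries.

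**Figure D1:**
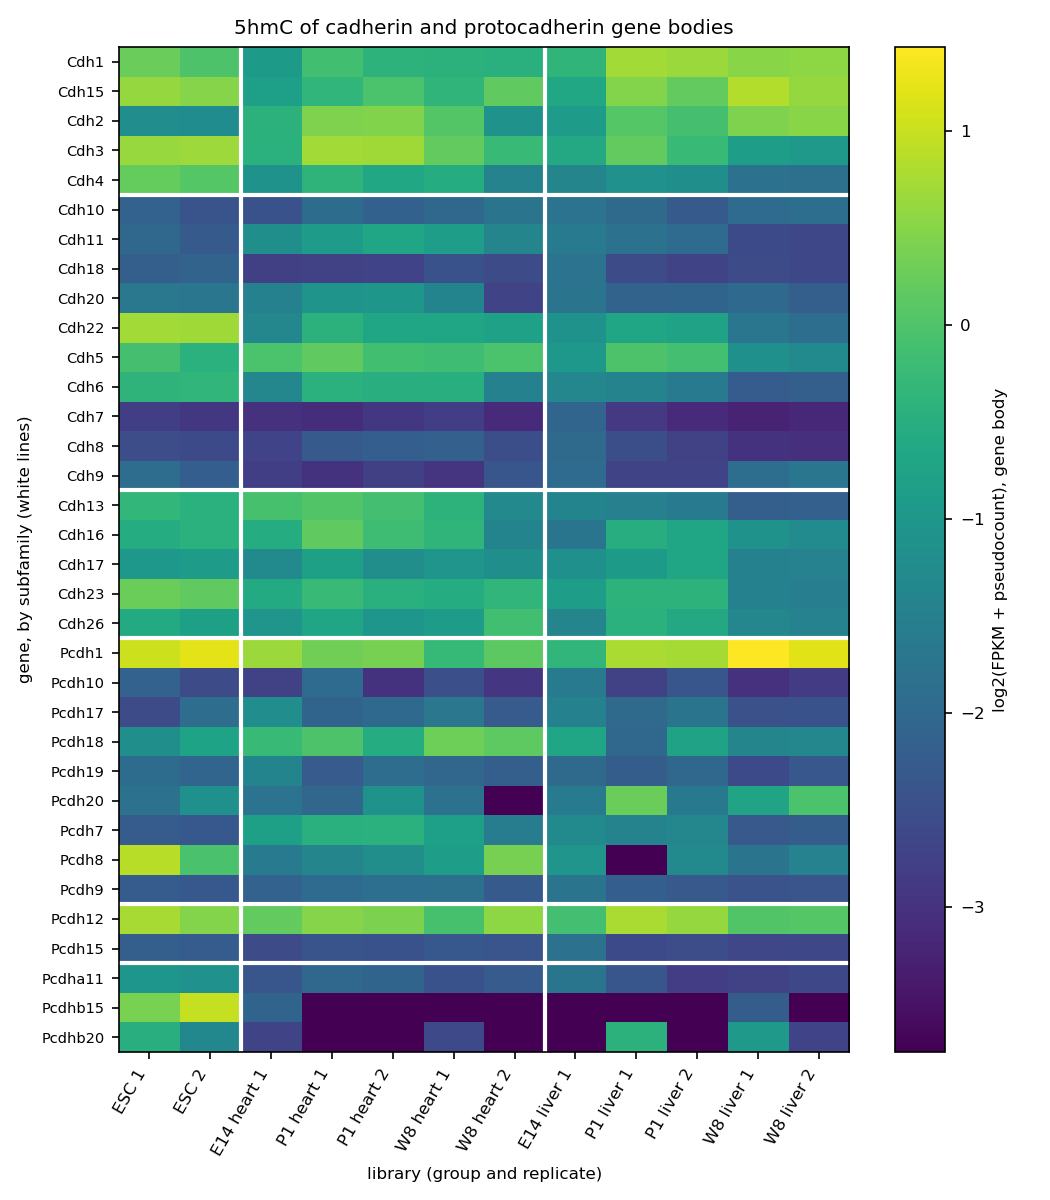
Gene body 5hmC of the 34 members, as log2(FPKM + pseudocount), with genes in rows by subfamily and the 12 libraries in columns (ESC, then heart, then liver). Pcdh1 and Pcdh12 are bright in every library and most type II cadherins are dark. W8 liver is the group with the lowest mean FPKM for 19 members, a count made for the members alone and not for all genes.

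The first comparison was between the tissues at the same age and read format, heart against liver. At P1, Cdh13 was higher in heart and Cdh1 was lower, and no other member passed the test (limma over all 13498 genes, adjusted p under 0.05), where 2.27% of all genes did, 0.348% higher and 1.93% lower. At W8, 11 members were higher in heart and 4 were lower, where 30.7% of all genes passed, 9.48% higher and 21.3% lower. The members' median difference was 0.35 on the log2 scale at W8, while that of all genes was -0.32, and 25 of 33 members were above 0 against 35.0% of all genes. At P1 the medians were 0.09 and -0.23, with 21 of 33 members above 0 against 32.6% of all genes. These differences are of log2(FPKM + pseudocount), a scale that understates the change of low genes.

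**Figure D2:**
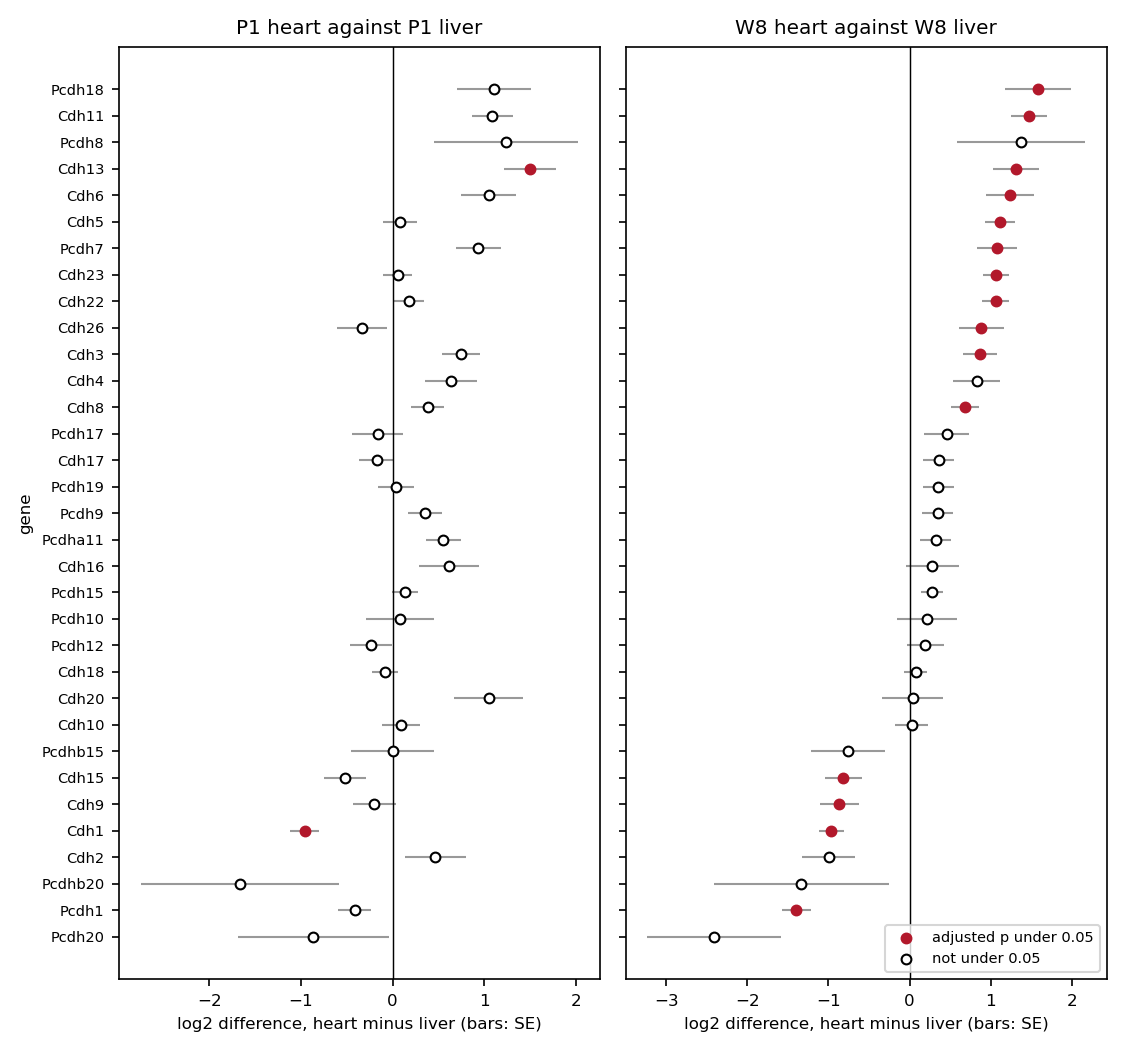
Heart minus liver log2 difference of each tested member's gene body at P1 (left) and W8 (right), with bars for the standard error and filled points for adjusted p under 0.05. At P1 2 points are filled, and at W8 11 are filled to the right of 0 and 4 to the left.

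Among the type I cadherins, Cdh1 had more 5hmC in liver and was called at both ages. Its body, on chromosome 8 from 109129251 to 109194146 (mm9), held 0.835 and 0.682 FPKM in P1 heart and 1.57 and 1.51 in P1 liver. At W8 it held 0.675 and 0.659 FPKM in heart and 1.35 and 1.40 in liver. Within each of these ages both livers lay above both hearts. The E14 liver library, with its narrow spread of levels, held 0.708 FPKM, however, within the range of the hearts. The difference was -0.96 ± 0.16 (SE, n = 2 libraries per group, limma adjusted p = 0.0452) at P1 and -0.96 ± 0.16 (adjusted p = 0.00814) at W8. With each library centred on its median, the P1 value had an adjusted p of 0.0538 and was no longer called.

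P-cadherin, Cdh3, is the neighbour of Cdh1 on the same chromosome (109036791 to 109080792), with 44458 bp between its body and the promoter window of Cdh1 and no protein-coding gene between them. It went the other way. Cdh3 held 1.06 and 0.768 FPKM in W8 heart against 0.478 and 0.446 in W8 liver, a difference of 0.87 ± 0.21 (adjusted p = 0.0228). At P1 it held 1.57 and 1.55 FPKM in heart and 1.07 and 0.760 in liver, a difference of 0.74 ± 0.21 that did not pass (adjusted p = 0.0966) but was called without W8 heart replicate 2 (adjusted p = 0.0271). The ratio of Cdh1 to Cdh3 body level, in which the scaling by depth cancels, was 0.440 to 0.858 in the 5 hearts and 1.23 to 3.13 in the 5 livers. It was 0.604 to 0.761 in ESC. The hearts and livers did not overlap in this ratio, although they did in each gene alone. How many other gene pairs separate the tissues so was not counted. The highest heart ratio, in W8 heart replicate 2, rests on 13.9 reads in Cdh1 and 11.0 in Cdh3.

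Cdh2 (N-cadherin) changed order between tissues with age. Its body held 1.28 and 1.30 FPKM in P1 heart against 0.975 and 0.858 in P1 liver, and 0.673 against 0.460 in the single E14 libraries. At W8 the livers were the higher ones, with 1.28 and 1.35 FPKM against 0.954 and 0.393 in heart. The W8 difference was -0.999 ± 0.331 (adjusted p = 0.0579). Without W8 heart replicate 2, in which Cdh2 had 28.0 reads where the level of replicate 1 would give 67.9, the W8 difference was smaller, at -0.43 ± 0.14, and was called (adjusted p = 0.0471), as was the P1 difference of 0.47 ± 0.11 (adjusted p = 0.0325). The change of the tissue difference between P1 and W8 was -1.47 ± 0.47 and did not pass (interaction, adjusted p = 0.180). Without that library it was -0.90 ± 0.17 (adjusted p = 0.0681).

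Cdh15, the M-cadherin of skeletal muscle, was lower in W8 heart, at 0.702 and 1.06 FPKM against 1.70 and 1.46 in W8 liver (-0.82 ± 0.23, adjusted p = 0.0354). This call was lost with median centring (-0.50 ± 0.24, adjusted p = 0.159). Both P1 livers also lay above both P1 hearts (-0.52 ± 0.23, adjusted p = 0.209). Cdh4, or R-cadherin, passed neither test with all libraries. When W8 heart replicate 2 was set aside, the 4 other hearts lay above every liver, and Cdh4 was called at P1 (0.64 ± 0.14, adjusted p = 0.0259) and at W8 (1.27 ± 0.17, adjusted p = 0.00447). Median centring also gave a call at W8 (adjusted p = 0.0229).

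Of the type II cadherins, Cdh11 separated the tissues in every library. OB-cadherin, as it is known, is a cadherin of mesenchymal cells and fibroblasts, and its body lies on chromosome 8 from 105156895 to 105307011. Cdh11 held 0.460 and 0.547 FPKM in P1 heart, 0.373 in E14 heart, and 0.476 and 0.307 in W8 heart. In liver it held 0.210 and 0.185 at P1, 0.260 at E14, and 0.0927 and 0.0881 at W8. All 5 hearts lay above all 5 livers. The W8 difference was 1.47 ± 0.22 (adjusted p = 0.00681) and the P1 difference 1.09 ± 0.22 (adjusted p = 0.0591), the latter called after median centring and without W8 heart replicate 2. Summed 5hmC of 7 fibroblast markers moved the same way at W8, with 3.79 and 3.07 FPKM in heart against 1.54 and 1.71 in liver. Of the 7, 3 were called higher and 5 had a difference above 0. The differences of the 7 ran from -0.74 to 1.75, and the part of this sum in the result was not tested.

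VE-cadherin, Cdh5, was called between the tissues at W8. Its body, on chromosome 8 from 106627525 to 106668402, held 1.06 and 0.835 FPKM in P1 heart and 0.923 and 0.852 in P1 liver, which overlap. At W8 it held 0.816 and 0.902 FPKM in heart and 0.375 and 0.341 in liver. The W8 difference was 1.11 ± 0.19 (adjusted p = 0.00868) and the P1 difference 0.08 ± 0.19 (adjusted p = 0.827). The difference between ages was itself 1.03 ± 0.26, which did not pass over all genes (adjusted p = 0.132). Summed 5hmC of 7 endothelial markers was 6.03 FPKM in both W8 hearts and 4.96 and 4.86 in W8 liver. Of the 7, 4 were called higher (Kdr, Tek, Emcn and Flt1), and 5 had a difference above 0. The differences of the 7 ran from -0.28 to 1.19, and the part of this sum in the result was not tested.

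Across the 12 libraries, the gene bodies whose log2 level followed Cdh5 most closely were Ksr1 (Pearson r = 0.965), Dbn1 (0.958), Galnt7 (0.957), Parvb (0.954) and Itprip (0.947). The endothelial receptors Kdr (0.867) and Flt1 (0.851) followed less closely, and Pecam1 reached 0.517. These libraries share groups and depth, so the values are a description.

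The other type II cadherins called at W8 were mostly higher in heart. Cdh6, the kidney cadherin, held 0.635 and 0.289 FPKM in W8 heart against 0.137 and 0.146 in W8 liver (1.23 ± 0.30, adjusted p = 0.0235). Cdh22 held 0.550 and 0.505 FPKM against 0.230 and 0.1995 (1.06 ± 0.16, adjusted p = 0.00716). Cdh8 was lower in level, at 0.149 and 0.102 FPKM against 0.0508 and 0.0474 (0.68 ± 0.18, adjusted p = 0.0277). Cdh9 was the type II member called lower in heart, at 0.0538 and 0.121 FPKM against 0.198 and 0.230 (-0.87 ± 0.24, adjusted p = 0.0335), and it lost the call with median centring.

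T-cadherin, Cdh13, which is anchored by lipid and lacks a cytoplasmic tail, was higher in heart and called at both ages. Its body spans 1039189 bp of chromosome 8 and gathered between 111.6 and 7175 reads per heart library. Cdh13 held 0.940 and 0.854 FPKM in P1 heart against 0.283 and 0.257 in P1 liver, and 0.871 against 0.301 at E14. In W8 heart it held 0.683 and 0.329 FPKM against 0.148 and 0.149 in W8 liver. Every heart lay above every liver. The differences were 1.497 ± 0.284 at P1 (adjusted p = 0.04999) and 1.31 ± 0.28 at W8 (adjusted p = 0.0172). In all, 3 of the 33 members (Cdh11, Cdh13 and Pcdh18) had all 5 hearts above all 5 livers, which is 9.09% against 0.941% of all genes. Without W8 heart replicate 2 there were 6, with Cdh4, Cdh20 and Pcdh7 added, which is 18.2% against 3.79% of all genes. No member had every liver above every heart, against 2.27% of all genes.

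Cdh23 and Cdh26, also outside the classical types, were called at W8. Cdh23, the tip-link cadherin of hair cells, held 0.614 and 0.721 FPKM in W8 heart against 0.284 and 0.273 in W8 liver (1.07 ± 0.16, adjusted p = 0.00661). Cdh26 held 0.464 and 0.840 FPKM against 0.320 and 0.292 (0.88 ± 0.27, adjusted p = 0.0472), and this call was lost without W8 heart replicate 2 (0.50 ± 0.20, adjusted p = 0.0961). The kidney and intestinal cadherins did not pass with all libraries and no centring. Cdh16 held 1.05 and 0.818 FPKM in P1 heart and 0.620 and 0.540 in P1 liver, with W8 values of 0.706 and 0.302 against 0.399 and 0.347. With W8 heart replicate 2 left out, Cdh16 was called at P1 (0.61 ± 0.16, adjusted p = 0.0407) and at W8 (0.81 ± 0.19, adjusted p = 0.0215). Cdh17, called liver-intestine cadherin, held 0.411 and 0.372 FPKM in W8 heart against 0.288 and 0.291 in W8 liver (0.36 ± 0.19, adjusted p = 0.182), and was called with median centring (0.67 ± 0.18, adjusted p = 0.0333).

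Of the delta protocadherins, 2 were higher in W8 heart and 1 was lower. Pcdh7 held 0.490 and 0.268 FPKM in W8 heart against 0.129 and 0.140 in W8 liver, a difference of 1.08 ± 0.24 (adjusted p = 0.0191). In P1 heart it held 0.652 and 0.664 FPKM against 0.298 and 0.319 in liver (0.94 ± 0.24, adjusted p = 0.0825), which was called without W8 heart replicate 2 (adjusted p = 0.00809). Pcdh18 held 1.15 and 1.03 FPKM in W8 heart against 0.309 and 0.317 in W8 liver (1.58 ± 0.40, adjusted p = 0.0273), and all 5 hearts lay above all 5 livers. Its short body, of 12021 bp, gave 4.03 reads in W8 heart replicate 2.

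Pcdh1, on chromosome 18, was the delta protocadherin called lower in W8 heart. It held 0.753 and 1.02 FPKM in W8 heart against 2.63 and 2.23 in W8 liver, which do not overlap (-1.39 ± 0.18, adjusted p = 0.00532). The order was the reverse in the single E14 libraries, with 1.49 FPKM in heart and 0.720 in liver, the library with the narrow spread of levels. Pcdh20, whose body is 4650 bp, was also lower in W8 heart, with 7 reads over both libraries against 56 in W8 liver, but did not pass (-2.41 ± 0.82, adjusted p = 0.0632). Its difference was -1.44 ± 0.83 without W8 heart replicate 2. Pcdh12, the endothelial VE-cadherin-2, did not follow Cdh5: it held 0.874 and 1.39 FPKM in W8 heart against 0.941 and 0.974 in W8 liver, and the groups overlapped (0.19 ± 0.22, adjusted p = 0.531). Its difference was -0.12 ± 0.17 without W8 heart replicate 2. Pcdh17 held 0.233 and 0.133 FPKM in W8 heart against 0.108 and 0.111 in W8 liver (0.46 ± 0.28, adjusted p = 0.233), and its difference without that library was 0.74 ± 0.28 (adjusted p = 0.0774).

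**Figure D3:**
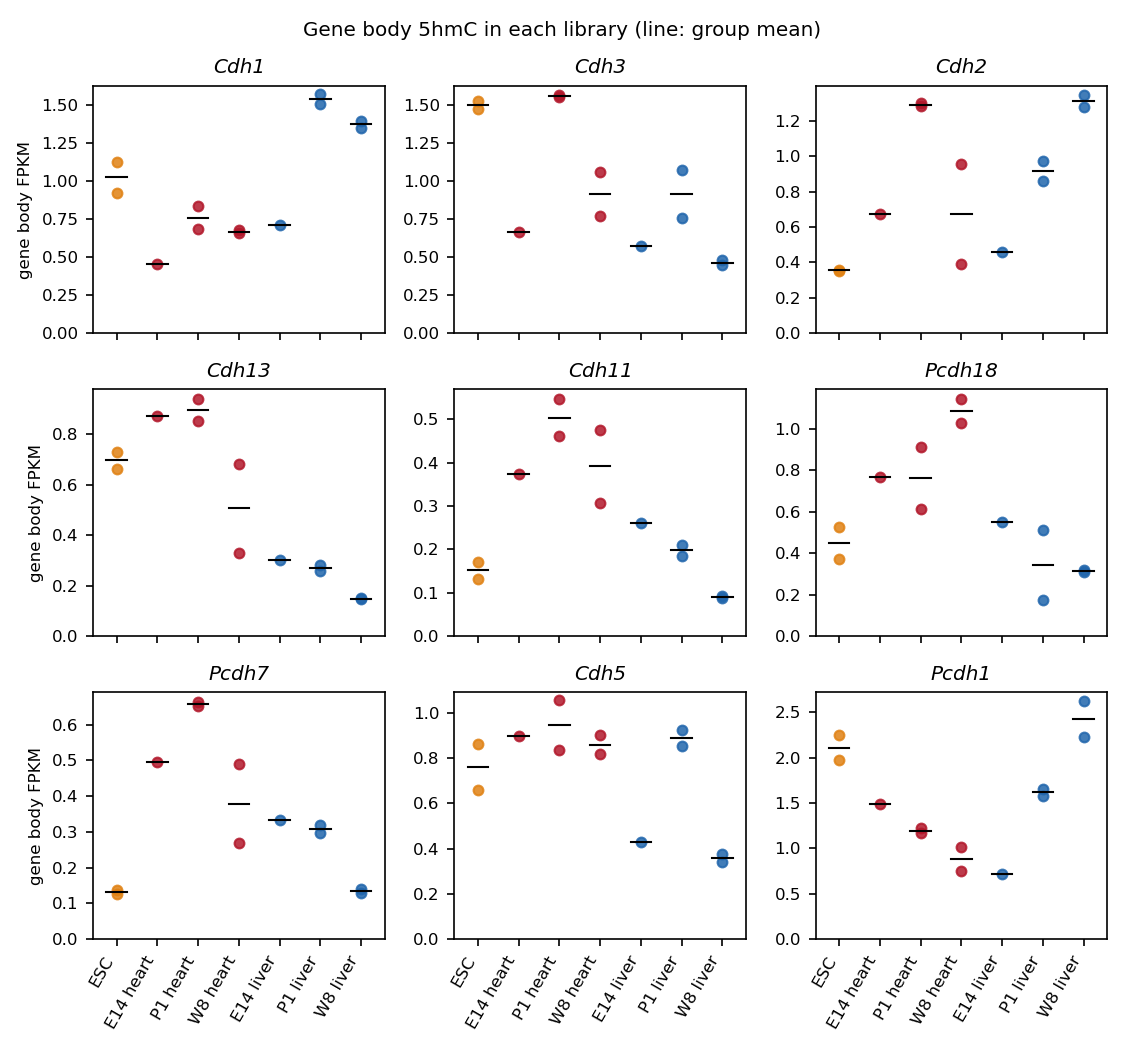
Gene body FPKM of 9 members in each library, grouped by ESC, heart and liver at E14, P1 and W8, with a line at each group's mean. Cdh1 and Pcdh1 are higher in W8 liver, the other members shown except Cdh2 are higher in W8 heart, and Cdh2 is highest in P1 heart and W8 liver.

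These calls rest on few libraries. None of the 15 W8 calls remained without either W8 liver library or when the 4 compared libraries were fitted alone, and neither P1 call held when any P1 library was left out, although each of the 41 called differences between any groups kept its sign in every alternative. Without W8 heart replicate 2 the counts were 9 higher and 1 lower at P1 and 14 higher and 5 lower at W8, where the same fit called 22.4% and 39.7% of all genes. With median centring the W8 count was 16 higher and 2 lower, and that of all genes moved from 1279 higher and 2871 lower to 2214 and 1353.

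The second comparison set the neonatal tissues against ESC. In P1 heart, 3 members were higher than in ESC and 5 were lower (12.7% of all genes called, 5.59% higher and 7.11% lower). In P1 liver none was higher and 8 were lower (15.4% of all genes, 10.4% higher and 5.05% lower), with 15 members and 4361 of all genes at an unadjusted p under 0.05 in either direction. The counts without W8 heart replicate 2 were 4 higher and 9 lower in heart and 3 higher and 11 lower in liver, where 33.1% and 33.6% of all genes were called. Both comparisons use the same ESC libraries, so their values stand side by side and are not independent.

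Cdh2, Cdh11 and Pcdh7 were the members that rose in P1 heart. Cdh2 held 0.359 and 0.352 FPKM in ESC, below every tissue library, and its heart difference was 1.67 ± 0.33 (adjusted p = 0.0263) beside 1.20 ± 0.33 in liver (adjusted p = 0.0522). Cdh11 held 0.172 and 0.131 FPKM in ESC and differed by 1.36 ± 0.22 in heart (adjusted p = 0.0177) and 0.27 ± 0.22 in liver (adjusted p = 0.450). Pcdh7 held 0.139 and 0.126 FPKM in ESC and differed by 1.83 ± 0.24 in heart (adjusted p = 0.0133) and 0.89 ± 0.24 in liver (adjusted p = 0.0503). All 3 were higher in both P1 hearts than in both P1 livers.

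Cdh22 and Pcdha11 fell from ESC in both tissues. Cdh22 held 1.58 and 1.54 FPKM in ESC, 0.679 and 0.547 in P1 heart and 0.544 and 0.516 in P1 liver, with differences of -1.25 ± 0.16 (adjusted p = 0.0129) and -1.43 ± 0.16 (adjusted p = 0.00813). Pcdha11 held 0.416 and 0.385 FPKM in ESC, 0.177 and 0.164 in P1 heart and 0.120 and 0.0689 in P1 liver. Its differences were -0.95 ± 0.19 and -1.51 ± 0.19 (adjusted p = 0.0274 and 0.00887). The deposited body of Pcdha11, of 252972 bp, is longer than the RefSeq Pcdha11 gene, of 176800 bp. Its value is therefore that of the locus more than of 1 isoform, and its promoter window may not lie at the Pcdha11 start. In liver alone the test also called Cdh13 (-1.16 ± 0.28), Cdh4 (-1.28 ± 0.28), Cdh6 (-1.16 ± 0.30) and Cdh23 (-0.61 ± 0.16), and in heart alone Pcdh1 (-0.78 ± 0.18) and Cdh18 (-0.57 ± 0.14). Whether the tissues differ in these falls is the P1 heart against liver test above, which called Cdh13 of these.

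The calls of Pcdhb15 and Pcdh8 rest on a handful of reads. The body window of Pcdhb15, of 795 bp, held 8 reads over both ESC libraries and none in any of the 4 P1 libraries. The 95% interval of the ratio of ESC to tissue, for counting error only, began at 0.673 for P1 heart, which includes no difference, and at 1.29 for P1 liver. The ESC estimate was 2.01 times a floor of 3 reads over the P1 liver group, a ratio that leaves out the counting error of the 8 ESC reads. Pcdh8, whose body is 2533 bp, held 18 reads in ESC and 3 in P1 liver, a ratio of 4.53 with a 95% interval from 1.32 to 24.0 that covers counting error only. No member called against ESC kept its call without either ESC library. Both ESC libraries lay above every tissue library for 6 of 33 members in gene bodies (18.2%), near the 16.9% of all genes, and below every tissue library for Cdh2, where 4.43% of all genes did so.

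Promoter windows gave another picture. Both ESC libraries lay above all 10 tissue libraries for 15 of 34 members (44.1%), where 10.4% of all genes did, and below all of them for none, where 6.43% of all genes did. The 15 were Cdh4, Cdh6, Cdh8, Cdh11, Cdh18, Cdh20, Cdh22, Cdh23, Pcdh7, Pcdh8, Pcdh15, Pcdh20, Pcdha11, Pcdhb15 and Pcdhb20, and the same 15 remained without W8 heart replicate 2, against 12.2% of all genes. In ESC the median member promoter was 1.33 and 1.35 of the median of all genes, whereas in the tissue libraries it was 0 to 0.574 of it. No single member passed the promoter test at an adjusted p under 0.05 (limma), and 0.074% of all genes did in P1 heart against ESC and 0.163% in P1 liver against ESC. At an unadjusted p under 0.05 there were 6 and 8 members (17.6% and 23.5%), against 12.5% and 17.9% of all genes. With a pseudocount 10 times larger the adjusted test called 5 and 7, and 3.20% and 9.82% of all genes. It called 2 and 5 without W8 heart replicate 2, and 5.72% and 15.6% of all genes. Nor did any member pass between the tissues, with 0.0074% of all genes called at each age and 2 and 4 members (5.88% and 11.8%) at an unadjusted p under 0.05, against 9.24% and 16.9% of all genes. Pcdh10 was the 1 member with every liver promoter above every heart promoter, which is 2.94% of members, near the 2.41% of all genes. It held 0 to 5 reads per library, with 1 in each P1 liver and 0 in each P1 heart, where 1 read is worth 0.196 or 0.231 FPKM. The closest values were 0.0702 FPKM in P1 liver replicate 2 and 0.0631 in E14 heart.

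**Figure D4:**
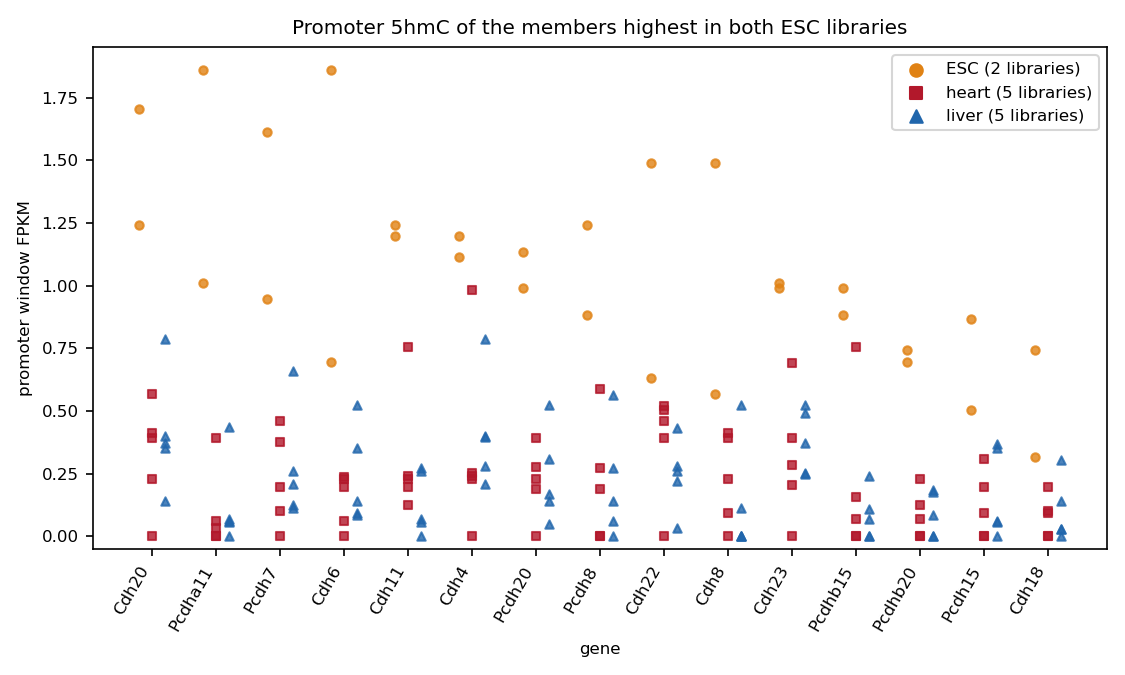
Promoter window FPKM of the 15 members whose 2 ESC libraries exceed every tissue library, with 1 point per library for ESC, heart and liver. The ESC points lie above the heart and liver points for each gene, and many tissue points are at 0.

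Pcdh7 and Cdh11 had a higher 5hmC level per length at the promoter than in the body in ESC, although most of their ESC reads lay in the much longer body. Pcdh7 held 1.61 and 0.946 FPKM at the promoter in ESC, from 13 and 15 reads, and 0.196 and 0.461 in P1 heart, from 1 and 2 reads. Its ratio of promoter to body was 11.6 and 7.54 in ESC and 0 to 1.98 in the tissue libraries. Cdh11 held 1.24 and 1.20 FPKM at the promoter in ESC and 0.196 and 0.231 in P1 heart, and its ratio was 7.22 and 9.14 in ESC and 0 to 2.46 in tissues. In both genes the promoter level was lower in P1 heart than in ESC while the body level was higher, and of these the body differences alone passed the test. Over the pooled reads, the ESC promoter of Cdh11 was 5.72-fold that of P1 heart (95% interval 1.45 to 49.5) and that of Pcdh7 3.68-fold (1.14 to 18.9).

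The clustered genes had few promoter reads outside ESC. Pcdha11 held 1.86 and 1.01 FPKM in ESC and 0 to 0.435 in tissues. Pcdhb15 held 0.992 and 0.883 in ESC against 0 to 0.756, where the highest tissue value was a single read in W8 heart replicate 2. Pcdhb20 held 0.744 and 0.694 in ESC against 0 to 0.231. These windows lie in 1 cluster and their agreement is not that of independent genes. That of Pcdha11 may not lie at the RefSeq start of the gene.

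Since 5hmC is found mainly at CG dinucleotides, promoter sequences are shown for 3 members of the ESC-high group and for 2 with little promoter 5hmC in any library, all chosen after their values were seen. They come from RefSeq (GRCm38.p6), which held an entry for 20 members, 7 of which had a start matching the deposited gene body. Each runs 250 bases before to 50 after the start, 5′ to 3′, with every CG in capitals. Cdh22 (chr2:165234688-165234987, minus strand), Pcdh8 (chr14:79771263-79771562, minus strand) and Pcdh20 (chr14:88471347-88471646, minus strand) each held 1.06 FPKM on average in ESC. Pcdh10 (chr3:45378148-45378447, plus strand) and Pcdh19 (chrX:133688944-133689243, minus strand) held 0.0935 and 0.125 FPKM.
Cdh22: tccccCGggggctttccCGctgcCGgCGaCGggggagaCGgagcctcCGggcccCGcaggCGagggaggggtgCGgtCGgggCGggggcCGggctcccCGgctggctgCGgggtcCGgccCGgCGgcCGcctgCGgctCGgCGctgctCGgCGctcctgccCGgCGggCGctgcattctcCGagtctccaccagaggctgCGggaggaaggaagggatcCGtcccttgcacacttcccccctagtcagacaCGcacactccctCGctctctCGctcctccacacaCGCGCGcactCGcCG
Pcdh8: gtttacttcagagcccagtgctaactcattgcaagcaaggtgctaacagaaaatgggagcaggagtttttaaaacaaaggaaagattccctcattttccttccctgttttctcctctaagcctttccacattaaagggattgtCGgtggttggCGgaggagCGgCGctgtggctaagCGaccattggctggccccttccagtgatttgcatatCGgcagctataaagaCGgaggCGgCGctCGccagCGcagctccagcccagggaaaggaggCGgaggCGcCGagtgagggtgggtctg
Pcdh20: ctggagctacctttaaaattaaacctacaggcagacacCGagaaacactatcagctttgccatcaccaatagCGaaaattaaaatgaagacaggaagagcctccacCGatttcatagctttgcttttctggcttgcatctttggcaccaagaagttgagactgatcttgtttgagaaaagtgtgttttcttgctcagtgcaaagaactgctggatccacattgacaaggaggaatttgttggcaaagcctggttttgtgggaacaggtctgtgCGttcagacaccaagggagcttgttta
Pcdh10: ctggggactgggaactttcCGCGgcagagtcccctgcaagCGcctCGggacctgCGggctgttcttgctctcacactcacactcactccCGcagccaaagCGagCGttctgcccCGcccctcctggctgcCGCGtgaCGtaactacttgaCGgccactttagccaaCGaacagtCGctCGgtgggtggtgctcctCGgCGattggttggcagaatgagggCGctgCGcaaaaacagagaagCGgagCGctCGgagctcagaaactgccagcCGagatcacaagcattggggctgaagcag
Pcdh19: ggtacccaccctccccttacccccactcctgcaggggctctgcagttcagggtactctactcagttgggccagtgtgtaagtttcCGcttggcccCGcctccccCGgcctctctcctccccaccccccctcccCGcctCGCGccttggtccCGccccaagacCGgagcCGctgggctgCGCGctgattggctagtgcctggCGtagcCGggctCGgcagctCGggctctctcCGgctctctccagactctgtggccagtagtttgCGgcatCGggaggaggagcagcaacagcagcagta

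The number of CG in these windows did not order the genes by promoter 5hmC. The 3 ESC-high promoters held 38 (Cdh22), 14 (Pcdh8) and 4 (Pcdh20) CG, and the 2 low ones held 24 (Pcdh10) and 18 (Pcdh19). Of all 32851 RefSeq promoter windows of the same length, 4.95% held as many CG as Cdh22, 36.3% as many as Pcdh8, 68.6% as many as Pcdh20, 19.98% as many as Pcdh10 and 29.7% as many as Pcdh19. The motif searched was CG, which reads the same on both strands, and 94.6% of the windows held at least 1. The windows printed are shorter than the 4000 bp windows that were counted.

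The third comparison followed each tissue from E14 to W8, which share a read format but leave 1 library at E14 with no replicate check. The p-values of this comparison assume that the lone E14 library varies like the other groups. In liver, 3 members were higher at W8 and 5 lower, where 20.7% of all genes were called, 17.9% higher and 2.84% lower. Pcdh1 (1.65 ± 0.22, adjusted p = 0.0122), Cdh15 (1.39 ± 0.28, adjusted p = 0.0198) and Cdh1 (0.89 ± 0.19, adjusted p = 0.0239) were the higher ones. Cdh1 held 0.708 FPKM in E14 liver and 1.35 and 1.40 in W8 liver. The 95th percentile of long bodies was 0.92 FPKM in the E14 liver library, against 1.94 and 1.88 in W8 liver. The part of this narrow spread in the 3 rises was not tested. With median centring Cdh1 (0.38 ± 0.16, adjusted p = 0.169) and Cdh15 (0.88 ± 0.29, adjusted p = 0.0926) were no longer called, and Pcdh1 was (1.14 ± 0.24, adjusted p = 0.0289). Cdh8 (-1.06), Cdh11 (-1.02), Pcdha11 (-0.94), Cdh18 (-0.82) and Pcdh15 (-0.81) were lower.

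Most of the members lower at W8 were genes with little 5hmC elsewhere. Of 13 members under 0.25 FPKM on average, 6 had the E14 liver library as the highest of 12 (Cdh7, Cdh8, Cdh18, Pcdh9, Pcdh10 and Pcdh15). How many of all genes at such levels did so was not counted. This is the library with the narrow spread of levels described above. Its 5th percentile of long bodies was 0.226 FPKM, against 0.110 to 0.162 in the others, and the part of this in the result was not tested. The median difference of all genes was 0.47. With each library centred on its median, fewer members were called higher than lower, as was so of all genes, and Pcdh1 was the only member higher. Without W8 heart replicate 2 the counts were 4 and 12, where 41.8% of all genes were called, and without either W8 liver library they were 0.

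In heart no member was called between E14 and W8, nor was any of the 13498 genes (limma), with 6 members and 1638 genes at an unadjusted p under 0.05. Without W8 heart replicate 1, which leaves the thinly sequenced library to stand for W8 heart, some members were called, at a lower share than that of all genes. The change of the tissue difference from P1 to W8 was called for none of the members and for 0.0148% of all genes, with 6 members and 2588 genes at an unadjusted p under 0.05. Those with the largest such changes upward were Cdh26 (1.22 ± 0.39, adjusted p = 0.178), Cdh5 and Cdh23 (1.01 ± 0.22, adjusted p = 0.104). At E14, 18 of 33 members were higher in the heart library than in the liver library, against 66.5% of all genes, with median differences of 0.26 and 0.25.

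Genes that work with cadherins were set beside them as a list of 38 tested catenins and adaptors, desmosomal genes and other cadherin-superfamily genes. None was called between the tissues at P1, where 2.27% of all genes were. At W8, 8 of 38 were higher and 5 lower in heart, where 9.48% of all genes were higher and 21.3% lower. Taken in either direction, the share was near the 30.7% of all genes. The desmosomal cadherins Dsc2 (-1.47 ± 0.35, adjusted p = 0.0215) and Dsg2 (-1.39 ± 0.25, adjusted p = 0.0101) were lower in W8 heart, though Dsc2 was not called without W8 heart replicate 2 (-1.15 ± 0.37, adjusted p = 0.0511). Lower too was the junction adaptor Mllt4 (-0.94 ± 0.20, adjusted p = 0.0150). Ctnna3, the alpha-T-catenin of the intercalated disc, was higher (0.99 ± 0.24, adjusted p = 0.0225), as were the giant cadherins Fat3 (0.88 ± 0.21) and Fat4 (0.86 ± 0.21), with adjusted p = 0.0216 and 0.0250. With median centring the W8 counts were 16 and 3, and without W8 heart replicate 2 they were 10 and 4, beside 7 and 4 at P1. Against ESC, 7 were higher and 2 lower in P1 heart, where 5.59% and 7.11% of all genes were. In P1 liver 2 were higher and none lower, where 10.4% and 5.05% of all genes were. With median centring 16.4% of all genes were higher and 10% lower at W8, and the shares without W8 heart replicate 2 are given above.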

How the data were processed

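The authors deposited 1 table per library with FPKM values for a promoter window and a gene body of each gene. Reads were aligned with Bowtie2 to mm9, per the submitters' processing notes; the counting tool is not given in the sources used here. RefSeq gene lengths exceeded body lengths by a median of 2027 bp, so bodies start about 2000 bp inside genes. The file of each library was matched to its group by its label. Because the deposited values are FPKM, limma 3.58.1 (R 4.3.3) was fitted to log2(FPKM + pseudocount) of all 12 libraries with 7 group means and a mean-variance trend, leaving 5 residual degrees of freedom, with Benjamini-Hochberg adjustment over all genes tested and a threshold of 0.05. The pseudocount, also the floor on a gene's mean, was 0.0746 FPKM for bodies (13498 genes) and 0.0723 for promoters (13506 genes). Reads per window were recovered from the step size of low promoter values. In the ESC and P1 libraries these values were whole multiples of 1 step. In the E14 and W8 libraries they were sums of 2 steps with a ratio of about 1.03. The mean of those 2 steps was taken as 1 read, so reads there are approximate. In each library 100% of these values fitted within 0.01 reads. Intervals cover counting error only.

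The genes named are those called between the tissues (up to 8 per age with the largest difference), up to 5 per comparison with ESC and with E14, the highest and lowest member, and a fixed set of well-known members; other called members are given for completeness. The members and lists were chosen with earlier results of these data known. Alternatives were another pseudocount, no floor, median centring, a replicate block, the compared groups alone and leaving out each library.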

Additional observations from a re-analysis of the deposited data

How the results depend on the processing

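Of 41 called differences of single members, none changed sign in 420 alternative values. Calls were less stable: 19 of 41 were lost when the compared groups were fitted alone, 7 with median centring, 8 with the pseudocount divided by 10, 2 with it multiplied by 10 and none without the floor. The cause was not tested. For P1 heart against P1 liver, 2 members were called, beside 2.27% of all genes. The larger pseudocount gave 4 (6.1% of all genes), the smaller one 1 (1.21%) and the groups alone 0 (0%). For W8 heart against W8 liver, 15 were called (30.7% of all genes), and 0 with the groups alone (0%). For W8 liver against E14 liver, 8 were called (20.7% of all genes) and 13 with median centring (12.2%). With the groups alone 21 of 33 members were called, a share near the 65.1% of all genes. For promoters, 0 were called against ESC. The larger pseudocount gave 5 in P1 heart (3.2% of all genes) and 7 in P1 liver (9.82%). The groups alone gave 5 in P1 liver (12% of all genes).

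Leaving out 1 library at a time gave 0 to 10 called bodies for P1 heart against P1 liver, 0 to 19 for W8 heart against W8 liver, 0 to 13 for P1 heart against ESC, 0 to 14 for P1 liver against ESC, 0 to 7 for W8 heart against E14 heart, 0 to 16 for W8 liver against E14 liver and 0 to 9 for the change of the tissue difference between ages. For promoters the ranges were 0 to 2 for P1 heart against ESC, 0 to 5 for P1 liver against ESC, 0 to 10 for W8 heart against W8 liver and 0 to 0 for P1 heart against P1 liver. A lone sample is then assumed to vary like the other groups. The highest counts for W8 promoters, for W8 heart against E14 heart and for the change between ages came without W8 heart replicate 1. In each of these the share of members called was lower than that of all genes. The other highest counts above 0 came without W8 heart replicate 2, with the shares of all genes given above. Fits that called 0 members called few or none of all genes.

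The replicate numbers did not pair the libraries, since the correlation of their deviations was -0.0115 to 0.0419. With the replicate block, 11 of 41 calls were lost. The P1 tissue count was then 0 (0.037% of all genes) and that for P1 liver against ESC was 5 (12.7%). Depth limits precision most in W8 heart replicate 2, which had a median of 5.04 reads per body over all genes and none over 9.94% of bodies.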
